A study of Mus musculus with 4 samples.

Results

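The platelet-derived growth factor (PDGF) system was examined gene by gene in dissociated 4T1 tumours. Its members were taken by symbol and comprise the 4 ligand genes Pdgfa, Pdgfb, Pdgfc and Pdgfd and the 2 receptor genes Pdgfra and Pdgfrb, all 6 of which are present among the 55450 genes measured. PDGF ligands are secreted as disulphide-linked dimers that bring receptor chains together at the cell surface and switch on their tyrosine kinase activity. PDGF-A and PDGF-B are cut to their active form inside the cell, whereas PDGF-C and PDGF-D are released with an extra domain that proteases remove outside it. In vessels, PDGF-B made by endothelial cells is the classical signal that recruits pericytes carrying PDGFRβ, and PDGFRα is a standard marker of fibroblasts.

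The tumours were raised from 4T1, a carcinoma line of the mouse mammary gland, by implanting 1000000 cells in 25 µl into the right flank of female BALB/c mice aged 6-8 weeks. Mice received PBS or TIOs, a micrometre-scale oncolytic system modelled on cytotoxic T cells, by vein on day 7. On each of days 8, 9 and 10 all of them were lit for 5 min with a 980 nm near-infrared laser at a power density of 1.0 W cm-2. Tumours were taken on day 13. Of 4 samples, 2 were labelled PBS, 1 was TIOs+NIR3, and 1 titled PBS but described as TIOs-injected was left without a group. Nothing states whether a sample was 1 mouse or several.

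All 4 libraries were deposited as 1 matrix, and no source ties a library to a sample, so every library is a sample of unknown treatment. No treatment was compared and no test was run. Values are given library by library instead, with exact Poisson (levels) or Clopper-Pearson (shares of cells) 95% intervals, which cover counting error and not the spread between mice. Intervals of levels, of ratios and of UMI shares treat each UMI as independent, so they also leave out the spread between cells. Levels are in CPM, that is UMIs (unique molecular identifiers, counted mRNA molecules) of a gene per 1000000 UMIs of the same cells. After filtering, 32133 of 33064 barcodes were kept, with 6783 to 8889 per library. Before filtering, the libraries held 69255999 to 108646352 UMIs. In the kept cells 95 barcode sequences occurred in more than 1 library, 190 barcodes in all.

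Cells were assigned by the number of marker genes they held, and no member was a marker. This gave 3400 fibroblast-gated, 127 pericyte-gated, 255 endothelial-gated and 3308 tumour-gated cells, together with 16742 myeloid cells (3880 of them macrophage-gated) and 1223 T or NK-gated cells. A further 6222 cells met no gate and 765 met several. A gate is a range and not a cell type. At the minimum number of markers lay 472 fibroblast-gated, 26 pericyte-gated, 15 endothelial-gated and 614 tumour-gated cells, and 617, 66, 19 and 1028 cells held 1 marker too few. The gated cells carried their defining genes: Rgs5 at 3367 CPM in pericyte-gated, Cdh5 at 898 CPM in endothelial-gated, Epcam at 1028 CPM in tumour-gated and Col1a1 at 6431 CPM in fibroblast-gated cells. These genes are gate markers themselves, so their levels describe the gates and do not test them. The pericyte list also held the muscle genes Myh11 and Des, at 870 and 727 CPM in pericyte-gated cells. This gate therefore does not separate pericytes from vascular smooth muscle cells. Pericyte-gated cells also held a median of 5 fibroblast markers, endothelial-gated cells 3, and tumour-gated cells 2 keratinocyte markers and 1 fibroblast marker. Ptprc, which encodes the CD45 protein that the sort selected on, was at 7.48 to 12.9 CPM in these 4 classes against 244 to 875 CPM in the leucocyte classes. A Ptprc UMI was found in 7.09% of pericyte-gated to 27.3% of fibroblast-gated cells, against 68.8% to 91.3% in the leucocyte classes. How cells of the 4 classes came through the sort was not tested, so their numbers do not give their shares of the tumour. The classes were unevenly spread, with 3085 of the tumour-gated cells in library 1, 222 in library 2 and 1 in the other two. Pericyte-gated cells numbered 9, 66, 44 and 8 in libraries 1 to 4, endothelial-gated cells 47, 158, 37 and 13, and fibroblast-gated cells 158, 1323, 964 and 955.

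The order of the classes differed for each member. Pdgfra was highest in fibroblast-gated cells and Pdgfrb in pericyte-gated cells. Among the ligands, Pdgfa was highest in pericyte-gated cells, Pdgfb and Pdgfd in endothelial-gated cells and Pdgfc in tumour-gated cells. With all libraries together, the interval of the leading class lay apart from that of the class after it for each of the 6 genes. The leader could differ by library. For Pdgfc, macrophage-gated cells led in libraries 2 and 3 and fibroblast-gated cells in library 4. T or NK-gated cells were used as a reference level, since they are not a recognised source of either receptor. Whether they make any of the ligands was not tested. For Pdgfb, fibroblast-gated cells lay below them, at 0.605 against 7.92 CPM with all libraries together. A ratio to T or NK-gated cells is therefore a comparison of levels and does not measure the distance from loose RNA and stray reads.

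**Figure D1:**
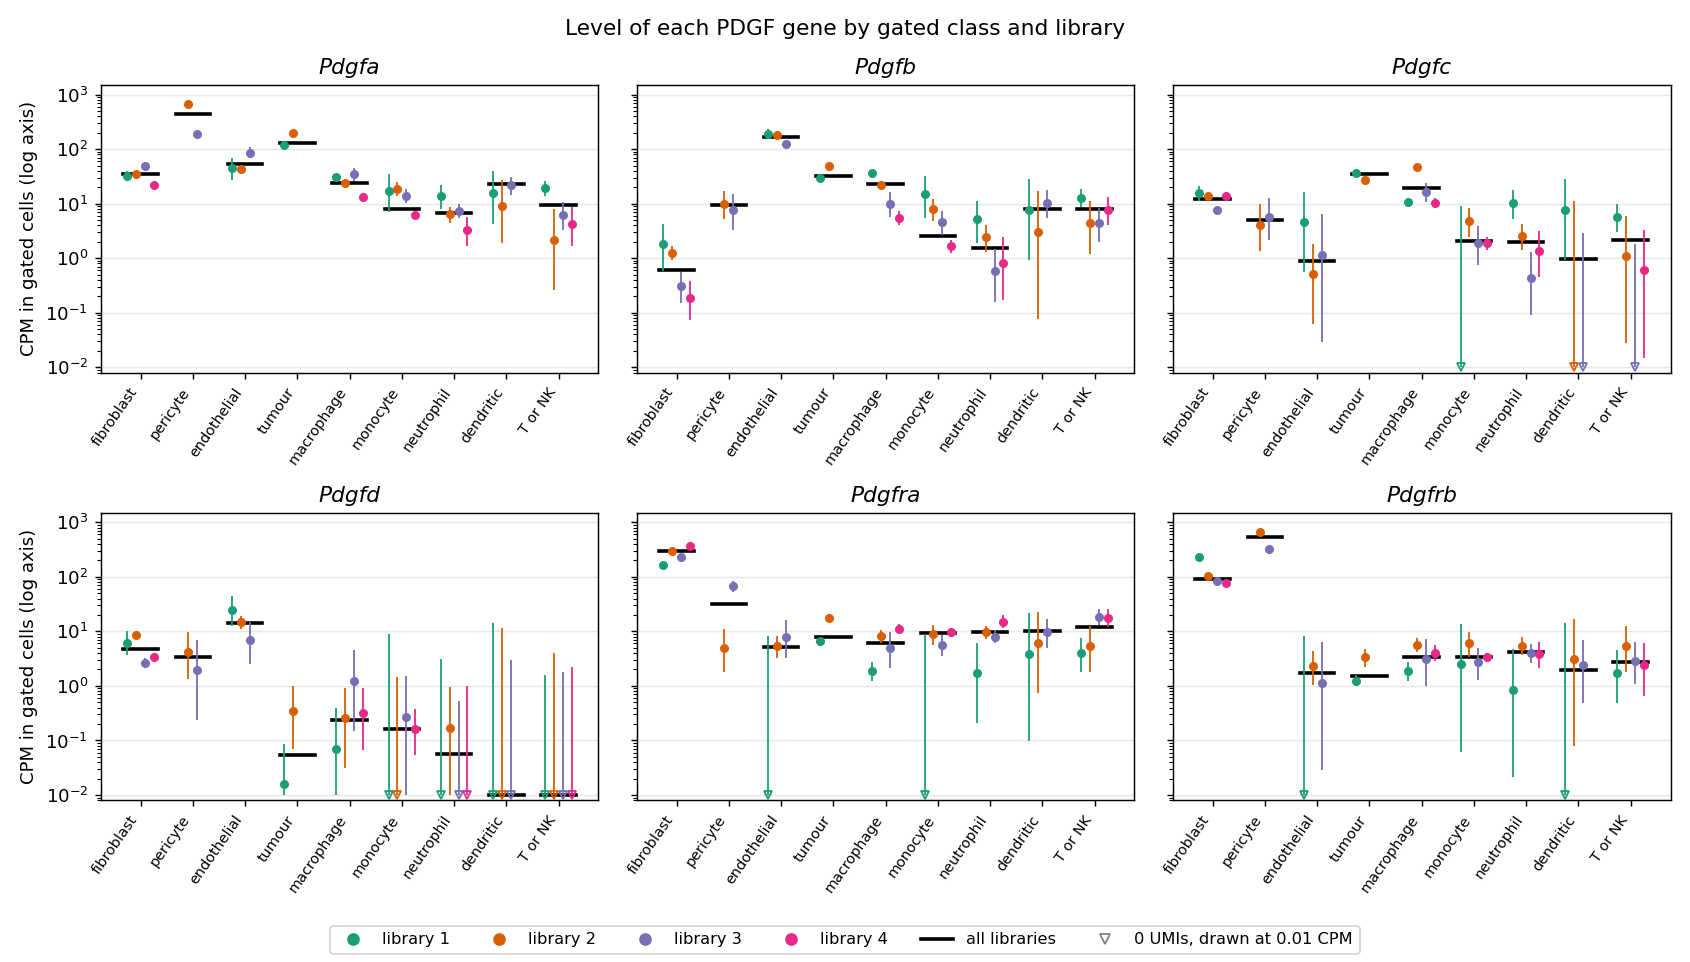
Level of each member (CPM, log axis) in 9 gated classes. Points are libraries with at least 20 cells of the class, bars are exact Poisson 95% intervals cut at 0.01 CPM, and black lines are all libraries together. Open triangles mark 0 UMIs, and the Pdgfd lines of dendritic-gated and T or NK-gated cells at the lower edge also stand for 0 UMIs. Pdgfra stands out in fibroblast-gated cells at 292 CPM, Pdgfrb in pericyte-gated cells at 526 CPM and Pdgfb in endothelial-gated cells at 166 CPM.

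Pdgfra encodes PDGFRα, the receptor chain that binds PDGF-A, PDGF-B and PDGF-C. It was counted 37746 times in 5245 cells, and fibroblast-gated cells held 85.7% of those UMIs. Shares of this kind depend on the gate: where any UMI of a marker counted as detection, only 2001 cells met the fibroblast gate alone and their share was 34.6%. Its level in fibroblast-gated cells was 166 CPM in library 1, 292 in library 2, 231 in library 3 and 361 in library 4. Library 1 was the lowest and library 4 the highest, and no 2 of the 4 intervals met (151-182, 286-297, 226-236 and 355-367 CPM). The median depth of these cells rose from library 1 to library 4, at 14953, 23744, 33726 and 38004 UMIs. A Pdgfra UMI was found in 74.7%, 89.0%, 94.3% and 97.0% of them. Over all libraries that was 92.1% of fibroblast-gated cells against 4.09% of T or NK-gated cells, whose median depth was lower (4037 against 29948 UMIs per cell). With every cell thinned to 1000 UMIs, the shares were 25.8% (24.3-27.3%) and 0.577% (0.232-1.18%). The thinned fibroblast-gated shares were 15.3%, 25.6%, 22.5% and 31.1% in libraries 1 to 4.

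Outside the fibroblasts, Pdgfra was low. In T or NK-gated cells it reached 3.94, 5.44, 18.4 and 17.9 CPM in libraries 1 to 4, and dendritic-gated, neutrophil-gated and monocyte-gated cells, at 10.3, 9.61 and 9.16 CPM, lay within the interval of the T or NK-gated cells or overlapped it (9.40-14.7 CPM). Set against the T or NK-gated cells of the same library, no myeloid class had a ratio whose interval lay above 1, although in library 2 all 4 were nominally higher (6.15 to 9.63 against 5.44 CPM). Tumour-gated cells held 6.63 CPM in library 1 and 17.9 CPM in library 2, which was 1.68-fold (0.877-3.70) and 3.30-fold (1.38-10.3) the T or NK level of the same library, so that the interval lay above 1 in library 2 alone. In a further division made after the values were seen, tumour-gated cells with UMIs of at most 1 fibroblast marker gene had 6.07 CPM of Pdgfra and those with 2 or more had 8.38 CPM. These are pooled values. All 955 cells of the former group lay in library 1, whereas the latter held 2130 cells of library 1 and 222 of library 2. The part of library in this difference was not tested.

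Pdgfrb encodes PDGFRβ, the receptor chain for PDGF-B and PDGF-D that mural cells need to spread along vessels. Pericyte-gated cells were its peak, with 672 CPM in library 2 and 327 CPM in library 3, where they numbered 66 and 44. The 9 and 8 cells of libraries 1 and 4 gave 862 and 548 CPM. A Pdgfrb UMI was present in 121 of the 127 cells, or 95.3%, with a median of 7 UMIs per cell and 80 cells holding 6 or more. Fibroblast-gated cells had lower levels in each library, at 234, 103, 85.2 and 76.1 CPM, yet they were so much more numerous that they held 73.2% of all 13819 Pdgfrb UMIs against 9.15% for pericyte-gated cells. The fibroblast share was 29.5% where any UMI of a marker counted. In the remaining 7 classes Pdgfrb lay between 1.50 and 4.23 CPM. After thinning to 1000 UMIs, 43.3% of pericyte-gated, 9.15% of fibroblast-gated and 0.0824% of T or NK-gated cells kept a Pdgfrb UMI.

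Among fibroblast-gated cells, library 1 was lowest for Pdgfra and highest for Pdgfrb, while library 4 was highest for Pdgfra and lowest for Pdgfrb. As a share of the UMIs of both receptors, Pdgfrb made up 58.4% (55.4-61.3%) in library 1, 26.1% in library 2, 27.0% in library 3 and 17.4% in library 4. Library 1 differed in make-up as well, since 120 of its 158 fibroblast-gated cells carried Lrrc15, a gene of matrix-producing tumour fibroblasts, against 299 of 1323, 37 of 964 and 33 of 955 in the others. Acta2, the smooth muscle actin gene, was found in 99 cells of library 1 and in 325, 246 and 175 cells of libraries 2 to 4. The 38 cells of library 1 without Lrrc15 had 184 CPM of Pdgfra and 182 CPM of Pdgfrb. Cells without Lrrc15 in libraries 2 to 4 had 310, 230 and 364 CPM of Pdgfra and 104, 85.2 and 76.8 CPM of Pdgfrb. Without Acta2, Pdgfra was at 338, 342, 258 and 378 CPM in libraries 1 to 4, so library 1 was not the lowest there. Pdgfrb of the same cells was at 231, 81.7, 73.5 and 67.0 CPM. Among cells with Acta2, library 1 was the lowest for Pdgfra, at 95.2 CPM. The part of these differences in make-up in the receptor levels was not tested. With all libraries together, fibroblast-gated cells with no pericyte marker (1124) had 88.6 CPM of Pdgfrb and those with 1 or more (2276) had 92.8 CPM. The pericyte list holds Ndufa4l2, which was at 438 CPM in fibroblast-gated cells. This division therefore does not set pericyte-like cells apart, and their part in fibroblast Pdgfrb was not tested.

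Pericyte-gated cells showed the opposite balance, with Pdgfrb at 94.3% of the UMIs of both receptors. Pdgfra was at 4.97 CPM in the pericyte-gated cells of library 2 and at 66.7 CPM in those of library 3, so that 3 of 66 and 18 of 44 cells held a UMI. With all libraries together, the Pdgfra of this gate differed with its fibroblast markers, in divisions chosen after the values were seen. The groups differed in library as well, and neither the part of the markers nor that of library was tested. Cells with at most 4 fibroblast marker genes detected (63 cells) had 7.99 CPM, and cells with 5 or 6 of them (64 cells) had 49.1 CPM. The former held 706925 UMIs of all genes from library 2 and 201881 from library 3, the latter 500101 and 833319. In cells with 8 or more of the 12 pericyte markers Pdgfra was at 5.73 CPM and Pdgfrb at 695 CPM, whereas cells with 5 to 7 had 59.0 and 351 CPM. Here the group with more pericyte markers had 46 cells in library 2 and 12 in library 3, and the other had 20 and 32.

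Both receptors were usually found together in fibroblast-gated cells. Of 3400 cells, 2410 held UMIs of both genes (70.9%, 69.3-72.4%), 721 of Pdgfra alone, 119 of Pdgfrb alone and 150 of neither. The product of the 2 separate shares is 68.5%, so joint detection was close to what the single genes give. By library, both were found in 65.2%, 67.3%, 73.2% and 74.5% of cells, against products of 62.4%, 63.7%, 71.4% and 73.2%. Cells with Pdgfrb alone made up 29 of 158 in library 1 and 10 of 955 in library 4. These shares depend on depth: at 1000 UMIs per cell 85 of 3388 cells (2.51%) kept both, against a product of 2.36%. In pericyte-gated cells 23 held both, 98 held Pdgfrb alone and none held Pdgfra alone.

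**Figure D2:**
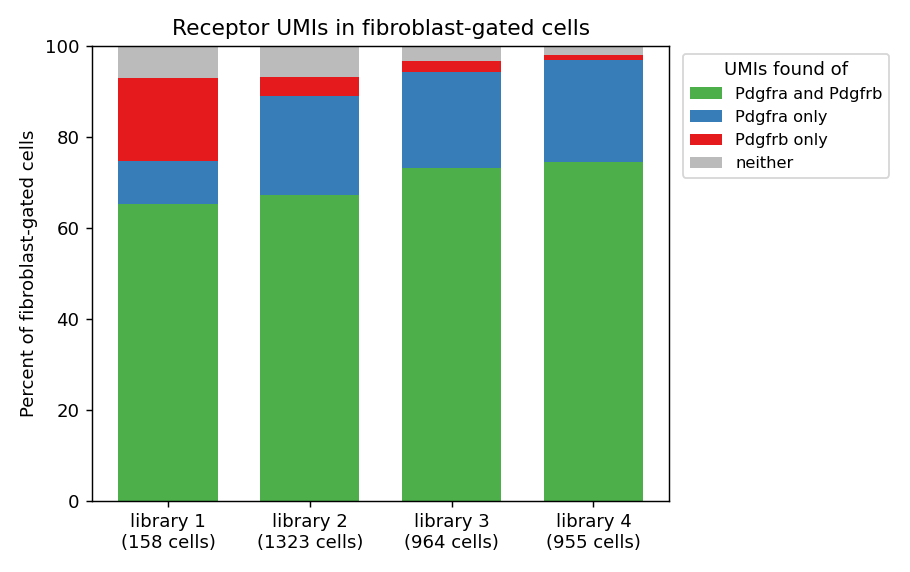
Percent of fibroblast-gated cells (vertical axis) in each library with UMIs of both receptors, of Pdgfra only, of Pdgfrb only or of neither, with the number of cells under each bar. Both receptors were found in 65.2% to 74.5% of cells, and the Pdgfrb-only part is widest in library 1.

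Pdgfa encodes the A chain, which acts through PDGFRα. Per UMI it was highest in pericyte-gated cells, although these few cells held 5.12% of its 20643 UMIs. The level there was 660.3 CPM in library 2 and 189 CPM in library 3, with 304 and 455 CPM from the 9 and 8 cells of libraries 1 and 4. Library 2 weighs heavily on the pooled 439 CPM, which is 216 CPM without it. Pericyte-gated cells with 8 or more pericyte markers had 703 CPM in library 2 and 503 CPM in library 3, from 46 and 12 cells. Those with 5 to 7 had 526 and 129.9 CPM, from 20 and 32 cells. Within each of these libraries the level was thus nominally higher where more pericyte markers were found. This division counts the markers of the gate itself. Both it and the next one, by fibroblast markers, were chosen after the values were seen. With all libraries together, cells with at most 4 fibroblast markers had 638 CPM and cells with 5 or 6 had 297 CPM. The former held 706925 UMIs of all genes from library 2 and 201881 from library 3, the latter 500101 and 833319. The part of library in this difference was not tested. Of the 127 cells, 105 held a Pdgfa UMI and 100 held both Pdgfa and Pdgfrb.

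Tumour-gated cells came next for Pdgfa, at 119 CPM in library 1 and 194 CPM in library 2, with a UMI in 68.4% and 91.9% of cells. Their median depths in those libraries were 18756 and 35482 UMIs. T or NK-gated cells of the same libraries had 19.3 and 2.18 CPM. Endothelial-gated cells had 45.2, 42.4, 85.5 and 103 CPM in libraries 1 to 4, the last from 13 cells, and fibroblast-gated cells had 31.8, 35.6, 48.7 and 22.3 CPM. Macrophage-gated cells had 30.2, 23.6, 35.1 and 13.0 CPM. In each of these classes, and in every library with at least 20 cells of it, the ratio to T or NK-gated cells of the same library had an interval above 1. For neutrophil-gated cells the interval of that ratio included 1 in all 4 libraries, with nominally higher levels in libraries 2 and 3 (2.92-fold and 1.18-fold). The largest share of Pdgfa UMIs, 45.0%, was in tumour-gated cells, but that figure rests on library 1, where the tumour-gated share was 77.8%. It was 30.5% in library 2 and 0% in libraries 3 and 4, where fibroblast-gated cells held 48.5% and 48.4%. A gene on the other strand of the Pdgfa locus, 6330403L08Rik, had 606 UMIs of its own.

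Pdgfb encodes the B chain, which binds both receptor chains. Endothelial-gated cells had 189.7, 179.8, 123 and 107 CPM in libraries 1 to 4, from 84, 712, 108 and 47 UMIs. All 4 values were above those of tumour-gated cells (29.5 and 48.3 CPM in libraries 1 and 2) and of macrophage-gated cells in the same library. A UMI was found in 58.4% of endothelial-gated cells at a median depth of 13963 UMIs, against 4.01% of T or NK-gated cells. Thinned to 1000 UMIs, the shares were 11.1% (7.51-15.7%) and 0.906% (0.453-1.62%). Fibroblast-gated cells were the lowest class, at 1.83, 1.27, 0.307 and 0.186 CPM, below the T or NK level in each library, with intervals of the ratio under 1 in 3 of 4 and spanning 1 in library 2. Pericyte-gated cells, at 9.56 CPM, did not differ from T or NK-gated cells (7.92 CPM) beyond their intervals.

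Pdgfb in macrophage-gated cells differed between libraries. It was at 35.9 CPM (32.9-39.2) in library 1, 22.3 CPM in library 2, 10.0 CPM in library 3 and 5.53 CPM (4.13-7.26) in library 4, against 12.7, 4.35, 4.36 and 7.75 CPM in T or NK-gated cells. The ratio had an interval above 1 in libraries 1 and 2, was 2.30 (0.956-5.90) in library 3 and was 0.714 in library 4, with an interval that also spanned 1. Library 1 also held nearly all tumour-gated cells. In a division made after the values were seen, macrophage-gated cells without a UMI of the tumour and keratinocyte markers had 11.1 CPM and those with 1 or more had 30.1 CPM. Within library 2 the same split gave 21.9 CPM in 807 cells and 22.7 CPM in 456 cells, and in library 1 only 21 cells lacked such a UMI. Macrophage-gated cells with the fractalkine receptor gene Cx3cr1, a split chosen after the values were seen, had 37.8, 52.1 and 14.2 CPM in libraries 1, 2 and 4 against 30.8, 20.2 and 5.13 CPM in the rest, and the intervals lay apart in library 2.

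**Figure D3:**
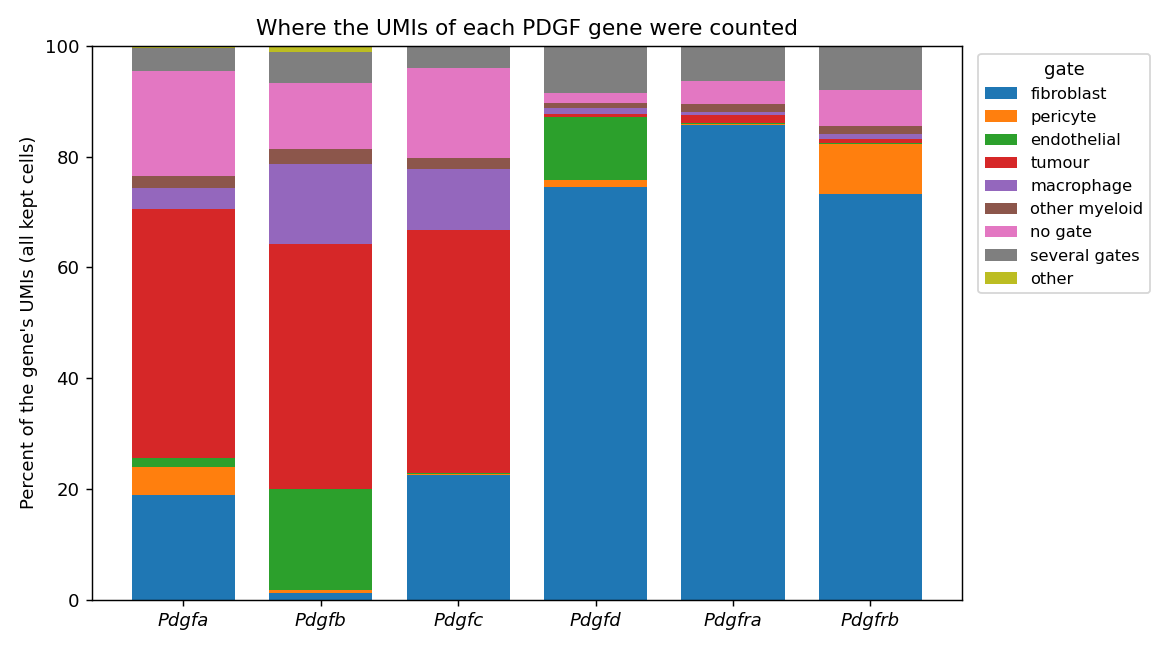
Percent of each member's UMIs (vertical axis) found in each gate over all 32133 kept cells. Fibroblast-gated cells hold most UMIs of Pdgfra, Pdgfrb and Pdgfd, and tumour-gated cells 44.0% to 45.0% of those of Pdgfa, Pdgfb and Pdgfc. Those tumour shares rest on library 1, which holds 3085 of the 3308 tumour-gated cells.

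Pdgfc encodes the C chain, a ligand of PDGFRα that needs extracellular cleavage. With all libraries together tumour-gated cells led, and they had 36.6 CPM in library 1 and 26.9 CPM in library 2. Macrophage-gated cells had 10.8, 47.5, 16.3 and 10.3 CPM in libraries 1 to 4, so in library 2 they were above the tumour-gated cells (42.8-52.6 against 23.6-30.6 CPM). Fibroblast-gated cells had 15.4, 13.9, 7.71 and 14.0 CPM. All 3 classes lay above the T or NK-gated cells of every library in which they had 20 cells. In endothelial-gated cells 5 Pdgfc UMIs were counted in 255 cells, or 0.874 CPM (0.284-2.04). Detection ran from 40.3% of tumour-gated cells and 21.1% of fibroblast-gated cells to 12.6% of macrophage-gated cells (median depth 7269 UMIs) and 0.899% of T or NK-gated cells. At 1000 UMIs per cell the shares were 3.73%, 1.33% and 2.62%, with 0 of 1214 T or NK-gated cells.

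Pdgfd encodes the D chain, which acts through PDGFRβ, and was the rarest member with 713 UMIs in 580 cells. Fibroblast-gated cells held 74.6% and endothelial-gated cells 11.4% of these UMIs, the former falling to 37.9% where any UMI of a marker counted. By level the order was the reverse, with 24.8, 14.7, 6.84 and 13.7 CPM in endothelial-gated cells of libraries 1 to 4 and 6.22, 8.55, 2.60 and 3.35 CPM in fibroblast-gated cells. The intervals of these classes lay apart in libraries 1 and 2 and overlapped in library 3. Both were above T or NK-gated cells, in which no Pdgfd UMI was counted in 1223 cells. With 3 counts taken as the most that a count of 0 allows, the level there could be up to 0.432 CPM and the share of cells with a UMI up to 0.245%. The exact Poisson interval, which is two-sided, ends at 0.531 CPM. Tumour-gated cells had 4 Pdgfd UMIs in 3308 cells.

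Fibroblast-gated cells were then divided by genes of known fibroblast states. Pi16 marks universal, adventitial fibroblasts and Dpt (dermatopontin) resting ones, Acta2 encodes the smooth muscle actin of contractile fibroblasts, and Lrrc15 is named above. Cells with Pi16 (1618 of 3400) had more Pdgfra in each library, at 191, 352, 400.5 and 434 CPM against 155, 205, 195 and 329 CPM without it, and all 4 ratios had intervals above 1. Pdgfd followed the same direction, at 11.3, 12.3, 8.11 and 6.24 CPM against 3.78, 3.11, 1.42 and 2.12 CPM, again with all 4 intervals above 1. Pooled, that is a 4.76-fold difference (3.93-5.79). Pdgfa was lower in Pi16 cells in all 4 libraries, at 27.1, 18.0, 13.4 and 10.4 CPM against 34.0, 60.9, 56.3 and 27.4 CPM, with 3 intervals below 1. Pdgfc and Pdgfrb were lower in 3 of 4. Cells with Pi16 had a median of 22277 UMIs and cells without it 39288, and the part of depth in these splits was not tested.

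Acta2 went the other way for Pdgfra, Pdgfd and Pdgfa, and here the cells with the gene were the deeper ones (37916 against 27950 UMIs). Pdgfra was lower in the 845 cells with Acta2 in every library, at 95.2, 189.8, 173 and 299 CPM against 338, 342, 258 and 378 CPM, and the ratio ran from 0.281 in library 1 to 0.789 in library 4. Pdgfrb was 235, 145, 110.2 and 108 CPM with Acta2 and 231, 81.7, 73.5 and 67.0 CPM without it. Libraries 2, 3 and 4 had intervals above 1, and library 1 did not (1.02, 0.856-1.21). Pdgfa was higher with Acta2 in all 4 libraries, 1.25-fold to 3.19-fold, and Pdgfd lower in all 4, with 3 intervals below 1.

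Dpt cells (2149) resembled the Pi16 cells, with Pdgfra 1.45-fold to 2.14-fold higher in all 4 libraries and Pdgfa at 0.386 to 0.771 of the level in cells without it. Pdgfrb went with Dpt in opposite directions, lower in libraries 1 and 2 and higher in 3 and 4, each time with an interval that excluded 1. Lrrc15 cells (489) stood apart in Pdgfc, at 17.6, 24.0, 20.4 and 51.2 CPM against 5.82, 10.9, 7.35 and 12.4 CPM, with 3 of 4 intervals above 1. Their receptor levels were not of a constant direction, Pdgfra being lower in 3 libraries and higher in library 3. The gates themselves use Dpt and Lrrc15 but neither Pi16 nor Acta2.

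**Figure D4:**
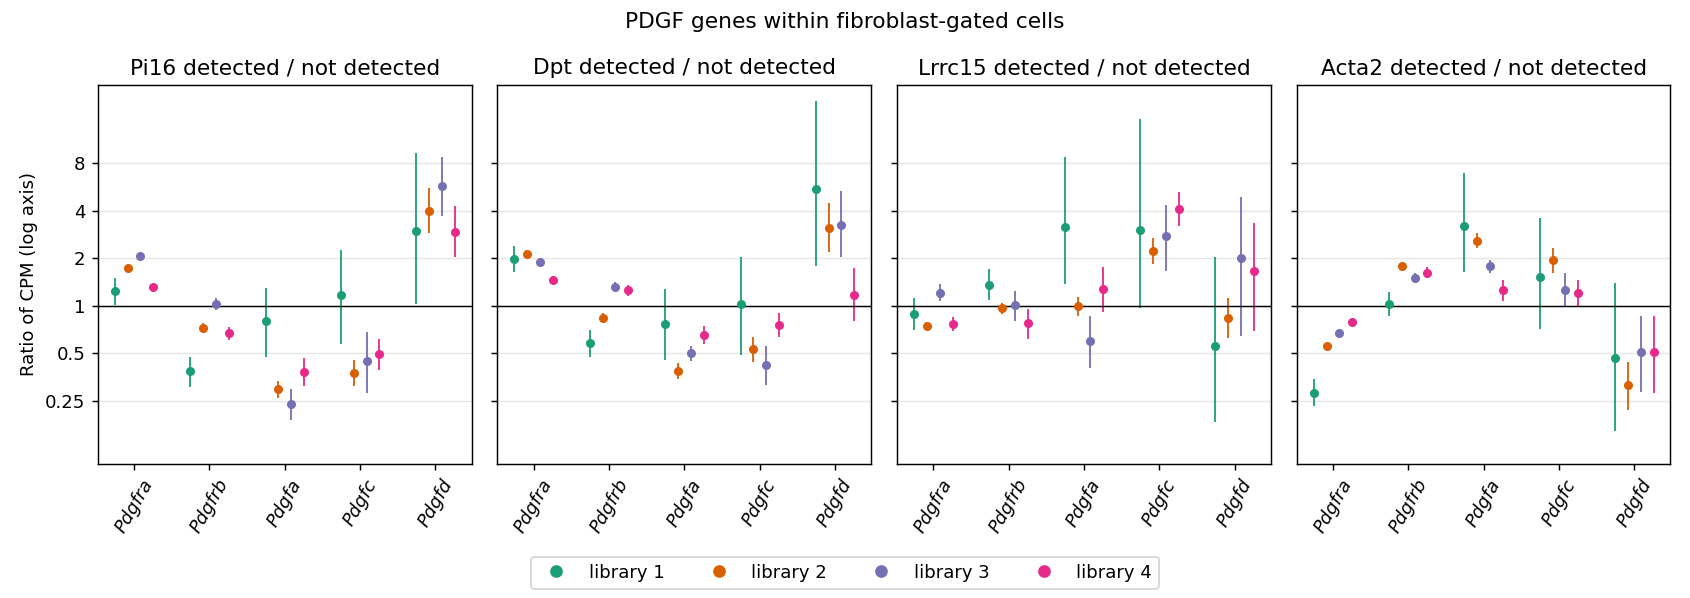
Ratio of CPM (log axis) between fibroblast-gated cells with and without each of 4 genes, for 5 members, by library. Points are ratios, bars are 95% intervals from the UMI counts, and the line at 1 marks equal levels. Pdgfra and Pdgfd lie above 1 in all 4 libraries for Pi16 and below 1 in all 4 for Acta2, and Pdgfc lies above 1 in all 4 for Lrrc15.

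Endothelial Pdgfb was higher in cells with 2 or more genes of sprouting tip cells. The list held Esm1, Apln, Angpt2, Cxcr4 and Dll4. Taken singly, Apln and Angpt2 went with higher Pdgfb in 3 of 3 libraries, with 3 and 2 intervals above 1. For Dll4 it was higher in 2 libraries, both with intervals above 1, and lower in 1. Esm1 and Cxcr4 divided the cells of 1 library each, where Pdgfb was higher, with an interval above 1 for Esm1 only. The 74 endothelial-gated cells with 2 or more of these 5 genes had 274, 266 and 217 CPM of Pdgfb in libraries 1 to 3, and the 181 others had 119.6, 116 and 40.6 CPM. Every interval of the ratio was above 1, at 2.29 (1.44-3.73), 2.29 (1.96-2.67) and 5.34 (3.23-9.29), while library 4 had too few cells to divide. These intervals leave out the spread between cells, which was wide: 106 of the 255 endothelial-gated cells held no Pdgfb UMI, and the highest count in a cell was 47. The tip-gene cells numbered only 17, 41 and 14 in libraries 1 to 3. They were also deeper, with a median of 22988 against 11146 UMIs, and the part of this in the result was not tested. Pdgfa was higher in the same direction in 3 of 3 libraries with 1 interval above 1. For Pdgfd the ratio was 1.21 (0.761-1.92), which does not separate the groups.

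Macrophage Pdgfc followed Cd163, the haemoglobin scavenger receptor of resident-type macrophages, in a split chosen after the values were seen. Cells with Cd163 had 63.8, 71.7, 36.6 and 15.7 CPM in libraries 1 to 4, from 19, 536, 104 and 332 cells, and cells without it had 10.3, 30.1, 6.49 and 8.11 CPM. All 4 intervals of the ratio were above 1, from 1.94-fold in library 4 to 6.19-fold in library 1. Pdgfa was lower in Cd163 cells in all 4 libraries with 2 intervals below 1, and Pdgfb showed no constant direction. Cells with Cd163 had the lower median depth (5656 against 8099 UMIs). In library 2, macrophage Pdgfc was at 49.3 CPM in cells without tumour and keratinocyte UMIs and at 45.4 CPM in cells with them.

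**Figure D5:**
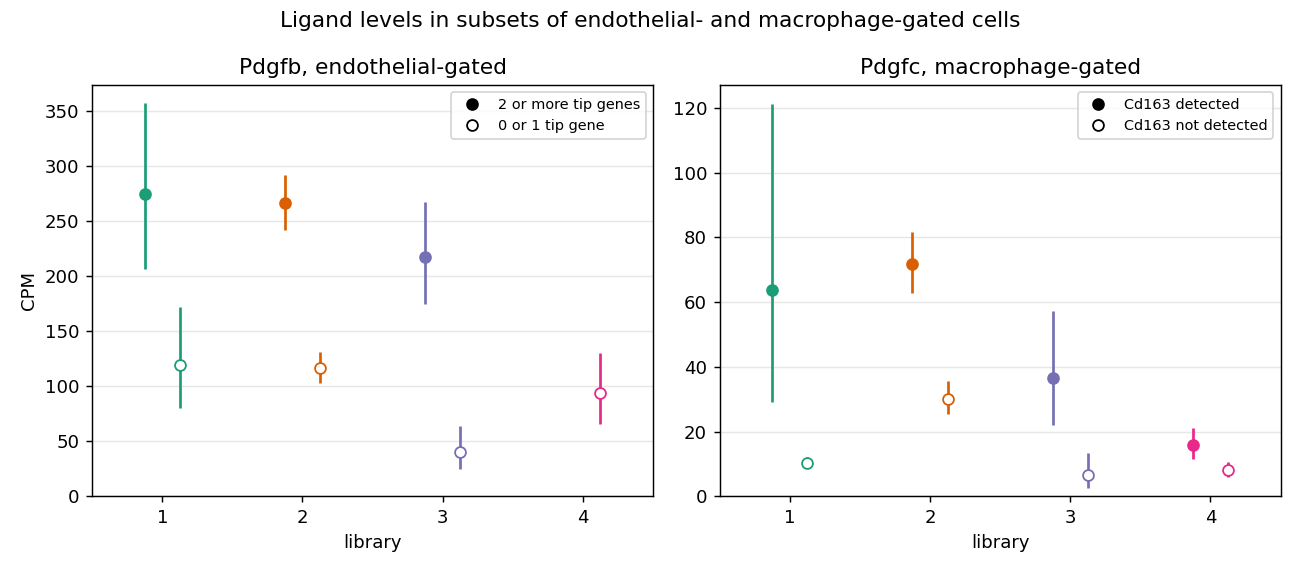
Level (CPM) of Pdgfb in endothelial-gated cells by tip genes (left) and of Pdgfc in macrophage-gated cells by Cd163 (right), by library, with exact Poisson 95% intervals as bars. Filled points (2 or more tip genes, or Cd163 detected) lie above open points in every library where both exist, 3 for Pdgfb and 4 for Pdgfc.

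UMIs of several ligands were found in the same tumour-gated barcodes. Of 3308, 892 held Pdgfa and Pdgfb (27.0%, against a product of 22.5%) and 976 held Pdgfa and Pdgfc (29.5%, against 28.2%). In T or NK-gated cells, at the lower median depth given above, these pairs were found in 0.491% and 0.245%. At 1000 UMIs per cell, 18 of 3298 tumour-gated cells kept Pdgfa and Pdgfb (0.546%, 0.324-0.861%) and 17 kept Pdgfa and Pdgfc (0.515%, 0.301-0.824%). The products of 0.368% and 0.423% lay within these intervals, so joint detection beyond the single shares was not detectable at equal depth. Doublets within the gate were not removed, and their part was not tested. Cells with the proliferation gene Mki67, a split also chosen after the values were seen, had less Pdgfc, at 19.6 and 13.0 CPM in libraries 1 and 2 against 40.0 and 28.9 CPM, with both intervals below 1. The cells with Mki67 numbered 373 in library 1 and only 19 in library 2, against 2712 and 203 without it. Those with Mki67 were also deeper (27269 against 18892 UMIs). Pdgfa was 131 and 203 CPM with Mki67 and 116 and 193 CPM without it, and Pdgfb had opposite directions in the 2 libraries.

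Of the 8 genes that process or bind the ligands, fibroblast-gated cells had the highest level of 4. Over all 11379 genes with at least 1000 UMIs in the 9 classes, they led for 12.1%. Their lead was small for Plat (1.07-fold) and Sparc (1.19-fold), both over pericyte-gated cells. Plat, the plasminogen activator that cleaves PDGF-CC, was at 125 CPM there and 117 CPM in pericyte-gated cells, against 10.2 CPM in tumour-gated cells, which were the leading class for Pdgfc. Plau, the urokinase that cleaves PDGF-DD, was at 310.0 CPM in fibroblast-gated cells and 173 CPM in endothelial-gated cells. St14 (matriptase), a further protease of PDGF-DD, was at 53.6 and 54.4 CPM in tumour-gated cells of libraries 1 and 2 and at 0.352 CPM in fibroblast-gated cells. Lrp1, a co-receptor, and Sparc, a matrix protein that binds PDGF-B, were at 474 and 8081 CPM in fibroblast-gated cells. Nrp1, another co-receptor, was highest in endothelial-gated cells at 201 CPM. Pdgfrl, a PDGF receptor-like gene, was at 72.5 CPM in tumour-gated and 63.0 CPM in fibroblast-gated cells, but fibroblast-gated cells led in libraries 1 and 2 (127 and 124 against 76.8 and 41.3 CPM). Furin, the convertase that matures the A and B chains, was spread over all classes from 32.4 CPM in dendritic-gated to 152 CPM in T or NK-gated cells.

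The 12 signalling genes downstream of the receptors showed no common class. With all libraries together, endothelial-gated cells led for 4 (Sos1, Plcg1, Nck1 and Crk), against 16.8% of all genes. Fibroblast-gated and dendritic-gated cells led for 2 each, against 12.1% and 8.50%. T or NK-gated, monocyte-gated, pericyte-gated and tumour-gated cells led for 1 each, against 15.1%, 7.37%, 10.7% and 15.1%. Some leads did not hold by library: endothelial-gated cells led for Sos1 in 1 of 3 and for Plcg1 in 2 of 3, and dendritic-gated cells for Stat3 in 1 of 3. The T or NK lead for Pik3ca was 1.003-fold. Pericyte-gated cells led for Src, at 41.5 CPM against 20.8 CPM in fibroblast-gated cells. Shc1 and Ptpn11, an adaptor and a phosphatase bound by activated receptors, were led by fibroblast-gated cells at 52.3 and 90.3 CPM, with pericyte-gated cells close behind at 46.9 and 82.7 CPM. The largest lead was that of Pik3r1, the regulatory subunit of PI3 kinase, which was at 542 CPM in dendritic-gated cells.

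The genes most like each member were sought over 25 combinations of class and library with 50 or more cells, as Pearson's r of log2(CPM + 10) among 11364 genes. The points share libraries and depth, only 1 pericyte and 1 endothelial unit entered, and r is given as a description. Pdgfra was matched by Rbp4 (0.981), a retinol carrier, Dclk1 (0.977) and the growth factor gene Fgf7 (0.976), each highest in fibroblast-gated cells. Pdgfrb was matched by Hoxc8 (0.991), Gpr176 (0.988) and Mark1 (0.988), and Pdgfa by D5Ertd605e (0.934), Rdh5 (0.911) and Ajuba (0.906), all highest in pericyte-gated cells of library 2. For Pdgfb the genes were the junctional adhesion gene F11r (0.891) and Podxl (0.849), which were highest in endothelial-gated cells, and Kank3 (0.856), which was highest in tumour-gated cells. For Pdgfd they were Meox1 (0.958), Adamts7 (0.950) and Ptprm (0.950), each highest in endothelial-gated cells. Pdgfc had the weakest matches, Tanc2 (0.853), the cation channel gene Trpv4 (0.815) and Rac3 (0.806), which peaked in 3 different classes.

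In the GRCm38 annotation Pdgfa lies at chr5:138976014-138997370 and Pdgfb at chr15:79995874-80014977, both on the minus strand. Pdgfc (chr3:81036416-81214040), Pdgfd (chr9:6168584-6378850) and Pdgfra (chr5:75152292-75198215) are on the plus strand. Genes that overlap the last 3 and Pdgfb together held few UMIs, at most 97 for any member, and no annotated gene overlaps Pdgfrb.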

How the data were processed

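Single cells of 4T1 tumours, sorted for CD45 per the labels, were profiled with the 10x Genomics droplet method. The authors deposited 1 matrix of UMI counts, made and aggregated with Cell Ranger and not scaled per cell. Its version is 3.0.2 in the extract protocol, 6.1.2 in the matrix header and 2.1.1 in the submitters' processing notes, which name the build mm10. How the libraries were scaled to each other on aggregation, and with which annotation, is stated in none of the sources used here, and all 55450 gene identifiers occur in GENCODE vM21.

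Barcodes with at least 300 genes and at most 15% mitochondrial UMIs were kept, as the study did. This left more cells than the study states, and which ones it analysed is not known. A marker counted as detected at 1 UMI per 10000 UMIs of the cell, and at 1 UMI in shallower cells. Gates needed 7 of 14 fibroblast, 5 of 12 pericyte, 6 of 12 endothelial, 5 of 10 tumour, 5 of 10 macrophage or 4 of 12 T or NK markers. Cells of several lineages were left out, and no doublet caller was run. Thinning drew 1000 UMIs per cell without replacement and left out 1890 shallower cells. The steps were tested on simulated data.

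The members and gene lists were chosen with earlier results of these data known, and the gate rule was set after the data had been looked at. Named were the 6 members, 20 pathway genes and the 3 genes most like each member. Python 3.11.15, numpy 2.4.6, scipy 1.17.1, pandas 2.3.3 and matplotlib 3.10.9 were used. Depth was 69255999 to 108646352 UMIs per library before filtering.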

Additional observations from a re-analysis of the deposited data

How the results depend on the processing

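Under 12 alternatives each member kept its leading class by level in all 72 cases, but here all myeloid cells were taken as 1 class. Macrophage-gated cells, which came next after tumour-gated cells for Pdgfc, were therefore not compared on their own, and whether they would have led was not tested. Tumour-gated cells lay mostly in library 1, so leaving out another library tested their Pdgfc lead little. Of the 72 values, 49 stayed within their counting interval. With 1 marker more or fewer in the gate, Pdgfa in pericyte-gated cells was at 531 and 471 CPM, Pdgfrb there at 638 and 495 CPM, and Pdgfra in fibroblast-gated cells at 320.3 and 284 CPM. Thinned to 1000 UMIs, Pdgfd in endothelial-gated cells was at 11.9 CPM (2.46-34.8), from 3 UMIs. The other levels were then 504 CPM for Pdgfa, 123 CPM for Pdgfb in endothelial-gated cells, 39.1 CPM for Pdgfc in tumour-gated cells, 321 CPM for Pdgfra and 654 CPM for Pdgfrb, and 2.51% of fibroblast-gated cells kept both receptors. With any UMI of a marker counted, an alternative added after seeing the data, they were 397, 115, 39.3 and 277 CPM for Pdgfa, Pdgfb, Pdgfc and Pdgfra. That rule left 2001 fibroblast-gated and 73 pericyte-gated cells, and the fibroblast shares of Pdgfra, Pdgfrb and Pdgfd UMIs were 34.6%, 29.5% and 37.9%. The cause of the other shifts was not tested. Leaving out each library in turn gave 216-627 CPM for Pdgfa, 136-174 CPM for Pdgfb, 26.9-36.6 CPM for Pdgfc, 13.1-15.5 CPM for Pdgfd in endothelial-gated cells, 257-322 CPM for Pdgfra, 378-675 CPM for Pdgfrb and 69.5-73.2% for both receptors. Without library 1, tumour-gated cells no longer held the largest share of Pdgfa, Pdgfb or Pdgfc UMIs. Levels that rest on few cells are the least precise, above all those of the 127 pericyte-gated cells. No paired analysis was possible because libraries could not be tied to samples and no test was run.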

Other observations

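Cells outside every gate held 19.0% of Pdgfa UMIs. Within them, the 156 cells with Myod1, a transcription factor of skeletal muscle precursors, had 157 CPM of Pdgfa (147-167), at 173, 167 and 122 CPM in libraries 2 to 4, from 40, 81 and 34 cells. The same cells had 26.9 CPM of Pdgfb, 5.11 CPM of Pdgfra, 2.11 CPM of Pdgfrb, 1.50 CPM of Pdgfc and no Pdgfd UMI. Their median depth was 45960 UMIs. Pdgfa was at 65.3 CPM in the ungated cells without Myod1.

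Ungated cells with Acta2 and under 3 tumour markers (429 cells) had 86.3 CPM of Pdgfrb, 121 CPM of Pdgfa and 62.4 CPM of Pdgfra. Their Pdgfrb was at 77.8, 8.72, 108 and 68.1 CPM in libraries 1 to 4, from 30, 197, 165 and 37 cells. Library 2 was far below the rest, while the Pdgfa of these cells was at 107, 119, 122 and 118 CPM. Library 3 held 4396859 of their 6028583 UMIs of all genes, so the pooled values rest mostly on it. Ungated cells with 3 or 4 tumour markers (1235 cells) had 40.0 CPM of Pdgfc, next to 35.5 CPM in tumour-gated cells. The divisions by Myod1, Acta2 and tumour markers were chosen after the values were seen.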
